A study of Homo sapiens with 6 samples.

Results

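The aryl hydrocarbon receptor pathway was followed through 6 genes: the receptor AHR, its partner ARNT, the repressor AHRR, and the target genes CYP1A1, CYP1B1 and TIPARP. They were taken from the deposited count table by gene name, and each of the 6 names matched 1 row of the 39293 genes kept. The cells were SW480, an established epithelial line from a human colorectal cancer, grown in 3 wells per group. DHA wells received dihydroartemisinin, the active metabolite of the artemisinin antimalarials, at 20 µg/mL for 4 h, and control wells were given 0.1% DMSO. All wells hold the same line with no other alteration named in the labels, and the DMSO content of the DHA wells was not given in the sources used here. Because the labels do not state whether wells were independent cultures, p-values speak only of well-to-well variation, which may be technical.

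AHR is a transcription factor of the bHLH-PAS class that waits in the cytosol in a complex with the chaperone Hsp90 and its co-chaperone p23. When a ligand such as a polycyclic aromatic hydrocarbon, a dietary indole or a tryptophan metabolite binds, the receptor enters the nucleus, pairs with ARNT and binds the xenobiotic response element, whose core letters are GCGTG. CYP1A1 and CYP1B1 encode monooxygenases that oxidise many of these ligands, while AHRR, which competes for ARNT, and TIPARP, an ADP-ribosyltransferase that modifies the receptor, feed back on the pathway. In the gut the receptor is known as a sensor of dietary and microbial compounds.

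The core letters were looked up in the 250 bases before each RefSeq transcript start (GRCh38.p14), on both strands, to place the targets beside the element their factor reads. RefSeq windows were matched for 5 of the 6 members, AHR, ARNT, AHRR, CYP1A1 and TIPARP, in 8 windows. GCGTG was present in 4 of these windows, belonging to 3 members, and in 32.2% of all 35116 windows. The longer form TNGCGTG, in which N is any base and which contains the core, was in 1 window of the members, before the first AHRR start, and in 4.52% of all windows. The 6 sites are shown on the strand of their gene with 10 bases on each side where the window allows, the core or its reverse complement in capitals. The first bases of the capitals lay 30 bases before the first AHRR start, 247 and 42 before the second, 57 before the CYP1A1 start, and 208 and 142 before the first TIPARP start. Annotated exons cover all 250 bases of the first TIPARP window, 82 of the CYP1A1 window and 40 of the second AHRR window. Sites before these RefSeq starts, among them both TIPARP sites, can thus lie within annotated transcripts.
AHRR start 1, chr5:321674-321698, plus strand: cgggcggctcGCGTGccggggtggg
AHRR start 2, chr5:322360-322377, plus strand: ggcGCGTGacaggcaggg
AHRR start 2, chr5:322558-322582, plus strand: agaagggtggGCGTGtgcgcgcgtt
CYP1A1, chr15:74725571-74725595, minus strand: agggaaggagGCGTGgccacacgta
TIPARP start 1, chr3:156674372-156674396, plus strand: cgagaaaggaCACGCcccctcgcgg
TIPARP start 1, chr3:156674438-156674462, plus strand: aacgaacgcgCACGCgcgcgcaggg

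The window before the first AHRR start is shown whole, because it holds the longer form and none of its bases lie in an annotated exon. Its core is in capitals, and 79.2% of its bases are G or C. The window still lies inside the annotated AHRR gene (304176 to 438291, plus strand), so longer AHRR transcripts can run across it.
AHRR start 1, chr5:321464-321713, plus strand: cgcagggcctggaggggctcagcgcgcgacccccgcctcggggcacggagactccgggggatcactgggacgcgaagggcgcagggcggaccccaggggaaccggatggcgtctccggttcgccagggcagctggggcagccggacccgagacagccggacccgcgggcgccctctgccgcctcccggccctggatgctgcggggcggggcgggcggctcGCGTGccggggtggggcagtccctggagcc
The AHR and ARNT windows and the other TIPARP windows held no GCGTG. A match of these letters is a description of the sequence and was not tested for binding, and elements farther from a start lie outside these windows.

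DHA libraries held 14810697, 16653074 and 14291726 counts and control libraries 18938456, 15807037 and 16681847, so that 3 counts correspond to between 0.158 and 0.210 CPM (counts scaled to a library total of 1000000). Among libraries of a group, the chi-square per gene ran from 1.65, for DHA replicates 1 and 3, to 14.7, for DHA replicates 2 and 3. Between groups it ran from 106 to 138, and DHA replicate 2 stood apart from the other DHA libraries. Every library was kept as its own replicate, though these values do not show whether wells of a group were independent cultures. Mitochondrial transcripts took between 11.6% and 13.3% of counts in DHA and between 7.84% and 9.30% in control libraries. Of 7 markers of colorectal epithelium, 6 had a mean of at least 1 CPM, and VIL1, at 0.640 ± 0.381 CPM in DHA and 0.137 ± 0.0383 CPM in control (SD, n = 3 each), did not. The 9 markers of immune cells, fibroblasts and endothelium summed to between 75.5 and 97.6 CPM in DHA and between 22.2 and 31.9 CPM in control libraries. Most of that was COL1A1, at 78.8 CPM in DHA and 25.1 CPM in control, with a log2 fold change of 1.75 ± 0.13. The monocyte marker CD14 also rose, with 62, 52 and 76 counts in DHA and 16, 5 and 7 in control libraries and a log2 fold change of 3.03 ± 0.35. The endothelial marker PECAM1 had 0, 3 and 0 counts in DHA and 6, 5 and 5 in control libraries. VWF, also endothelial, had 12, 25 and 12 counts in DHA and 14, 26 and 10 in control libraries. CD3E and PDGFRA had at most 1 count in any library, and PTPRC, COL1A2 and DCN were at 0 in all 6 libraries. The part of the mitochondrial share and of these markers in the results below was not tested.

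After 4 h of DHA, transcripts of the 4 genes that the receptor is known to induce were higher and those of both receptor subunits were lower. By the quasi-likelihood test of edgeR, adjusted after Benjamini and Hochberg over 15811 genes, all 6 members passed an adjusted p of 0.05, against 59.6% of all genes tested. AHRR, CYP1A1, CYP1B1 and TIPARP rose, as did 29.6% of genes tested, and AHR and ARNT fell, as did 30.1%. A rise of at least 2-fold was seen in the 4 targets, against 10.7% of genes tested, while a fall of at least 2-fold, found in 4.96% of genes tested, was seen in no member. The CPM ranges of the groups did not overlap for any of the 6 members, which was also the case for 65.5% of genes tested. CPM values are scaled by library totals alone, while the edgeR fit adds TMM scaling factors. These were 0.957 to 0.986 in DHA and 1.032 to 1.038 in control libraries. Fitted log2 fold changes therefore lie above those read from mean CPM. For CYP1A1 the fit gave 2.55, and 2.45 with library totals as the only scaling. The call for AHR is the least settled of the 6, as its values below show.

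**Figure D1:**
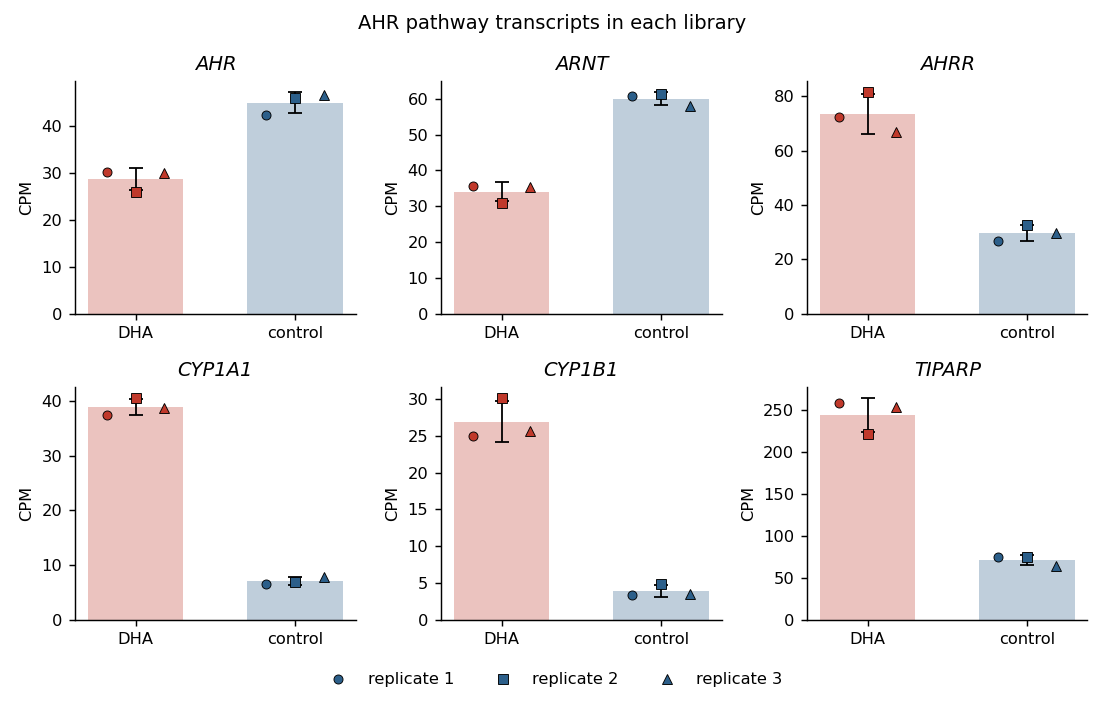
CPM of the 6 members in each library, with DHA in red and control in blue; bars are means of 3 libraries, error bars are SD and the marker shape gives the replicate number. All DHA points lie below all control points for AHR and ARNT, and above them for AHRR, CYP1A1, CYP1B1 and TIPARP.

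The xenobiotic-metabolising enzymes had the largest changes of the 6. CYP1B1 (ENSG00000138061, chromosome 2, 38066973 to 38109902, minus strand, protein coding) had 370, 501 and 367 counts in DHA libraries and 63, 76 and 59 in control libraries of replicates 1, 2 and 3. These are 24.98, 30.1 and 25.7 CPM in DHA and 3.33, 4.81 and 3.54 CPM in control, so that the lowest DHA library stood well above the highest control library. Its log2 fold change was 2.89 ± 0.14 (SE), with an adjusted p of 2.79e-08, the 347th highest of the 15811 genes tested. CYP1B1 oxidises polycyclic hydrocarbons and oestrogens and is expressed in many tissues outside the liver. Replicate 2 was the highest library of either group for this gene, and the control spread, at 20.6% of the mean, was the widest among the members. The antisense gene CYP1B1-AS1 shares 678 bp, or 11.3%, of the CYP1B1 exons on the opposite strand. It had 12, 20 and 19 counts in DHA and 7, 4 and 7 in control libraries, and reads within the shared bases cannot be assigned by strand, whose setting was not given in the sources used here.

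CYP1A1 (ENSG00000140465, chromosome 15, 74719542 to 74725610, minus strand, protein coding), the classical reporter of receptor activation, had 556, 675 and 555 counts in DHA and 125, 109 and 132 in control libraries. This was 37.5, 40.5 and 38.8 CPM in DHA and 6.60, 6.90 and 7.91 CPM in control. The 3 DHA libraries agreed closely, with an SD of 3.85% of their mean. The log2 fold change was 2.55 ± 0.10, with an adjusted p of 4.76e-09, ranking 422nd from the highest. No gene of the annotation used overlaps CYP1A1.

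The feedback genes rose by smaller factors than the CYP1 genes. TIPARP (ENSG00000163659, chromosome 3, 156673235 to 156706770, plus strand, protein coding) had 258, 221 and 254 CPM in DHA and 75.4, 75.1 and 64.5 CPM in control libraries. Here DHA replicate 2 was the lowest of its group, the opposite of its place for both CYP1 genes. TIPARP had a log2 fold change of 1.87 ± 0.09 and an adjusted p of 2.53e-08, ranking 692nd. TIPARP-AS1, on the opposite strand, shares 37 bp of its exons and had 9, 11 and 11 counts in DHA and 4, 3 and 2 in control libraries.

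AHRR (ENSG00000063438, chromosome 5, 304176 to 438291, plus strand, protein coding) had 72.4, 81.5 and 67.0 CPM in DHA and 26.7, 32.8 and 29.6 CPM in control libraries. The lowest DHA library was far above the highest control library, and replicate 2 was highest in both groups. The log2 fold change was 1.41 ± 0.09, with an adjusted p of 2.83e-07, ranking 1064th. PDCD6, on the same strand, shares 244 bp, or 3.18%, of the AHRR exons. PDCD6 had 430, 669 and 440 counts in DHA and 715, 518 and 617 in control libraries.

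In the authors' deposited table, which was filtered on an absolute log2 fold change of 1 and an adjusted p of 0.05 per its name, the same 4 genes are listed as higher. Its log2 fold changes are 2.88 for CYP1B1, 2.54 for CYP1A1, 1.86 for TIPARP and 1.40 for AHRR in the authors' deposited table. AHR and ARNT, whose changes lie under that limit here, have no row in it.

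The receptor subunits moved the other way. ARNT (ENSG00000143437, chromosome 1, 150809705 to 150876768, minus strand, protein coding), which also pairs with the hypoxia-inducible factors, had 35.8, 31.0 and 35.3 CPM in DHA and 60.7, 61.5 and 58.0 CPM in control libraries. Each control library was far above the highest DHA library. The log2 fold change was -0.72 ± 0.08, with an adjusted p of 1.95e-05, ranking 1796th from the lowest.

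AHR (ENSG00000106546, chromosome 7, 17298622 to 17346152, plus strand, protein coding) had 448, 432 and 427 counts in DHA and 801, 725 and 776 in control libraries. This was 30.2, 25.9 and 29.9 CPM in DHA and 42.3, 45.9 and 46.5 CPM in control, again without overlap. AHR had a log2 fold change of -0.55 ± 0.09 and an adjusted p of 0.000296, ranking 2877th from the lowest. With an offset per library for GC content and transcript length, added after the data were seen, the AHR value was 0.0058 ± 0.081 with an adjusted p of 0.957, so the call ended. The longest AHR transcript is 38.2% G and C, the lowest of the 6 members, against a median of 48.9% over genes tested. The 2349 tested genes at or under 40% lay at a median of -0.36 on the log2 scale, and the 2381 genes above 60% lay at 0.44. The part of this trend in the AHR value was not tested beyond that offset. With the same offset ARNT was at -0.52 ± 0.07, AHRR at 1.43 ± 0.09, CYP1A1 at 2.35 ± 0.10, CYP1B1 at 3.21 ± 0.15 and TIPARP at 2.14 ± 0.08, all still past the threshold. AC019117.2, a gene on the same strand in the annotation used, shares 29.4% of the AHR exons and has no row among the genes kept.

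**Figure D2:**
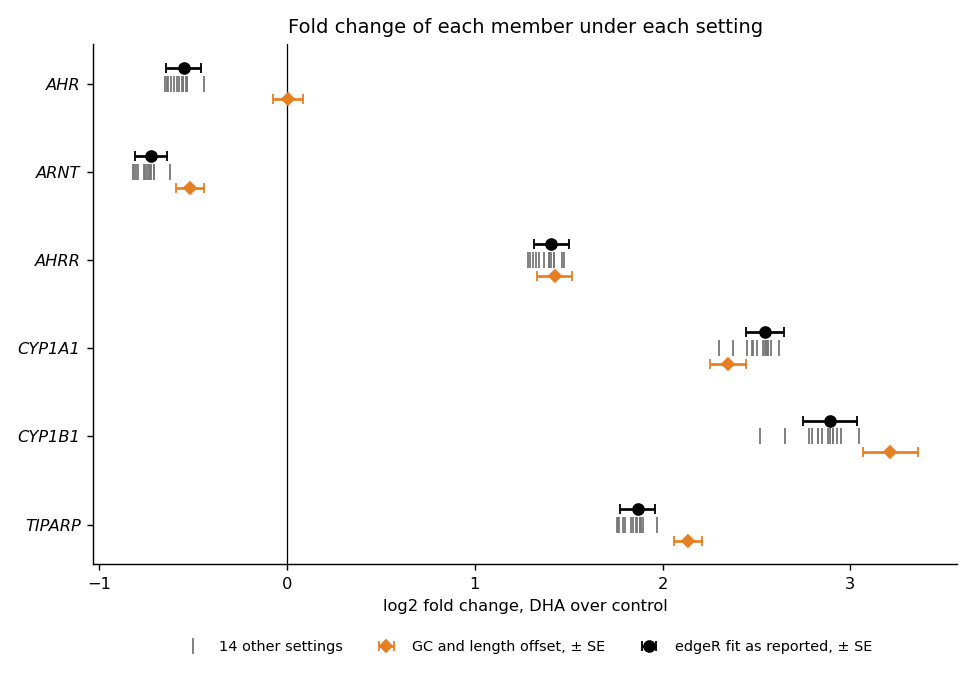
Log2 fold change of DHA over control for each member: black circles are the edgeR fit with SE, grey ticks the 14 other settings, and orange diamonds the fit with a GC and length offset, with SE. The 4 targets stay above 1 in every setting shown, ARNT stays below 0, and AHR lies near 0 with the offset only.

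Levels of different genes were compared per length, as reads per kilobase of annotated exon, scaled like CPM (RPKM, computed here from the counts). TIPARP was the most abundant member in both groups, at 48.4 ± 3.96 RPKM in DHA and 14.2 ± 1.23 RPKM in control (SD, n = 3 each). In DHA libraries it was followed by CYP1A1 at 11.3 ± 0.437, AHRR at 9.59 ± 0.960, ARNT at 5.22 ± 0.404, CYP1B1 at 4.48 ± 0.460 and AHR at 3.55 ± 0.295 RPKM. The ranges of ARNT and CYP1B1 overlapped in DHA, and no other neighbours in that order did. In control libraries TIPARP was followed by ARNT at 9.21 ± 0.283, AHR at 5.56 ± 0.281, AHRR at 3.87 ± 0.394, CYP1A1 at 2.08 ± 0.200 and CYP1B1 at 0.647 ± 0.133 RPKM, with no overlap between neighbours. The receptor was thus the least abundant of the 6 transcripts in DHA wells and ranked after TIPARP and ARNT in control wells, where both CYP1 transcripts were below it. Exon lengths join all annotated isoforms, so a level is too low where a shorter isoform is used. The AHR level, and its place in the order, would also be too low if shared reads went uncounted. AC019117.2 shares 29.4% of the AHR exons, and how reads there were counted was not tested.

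**Figure D3:**
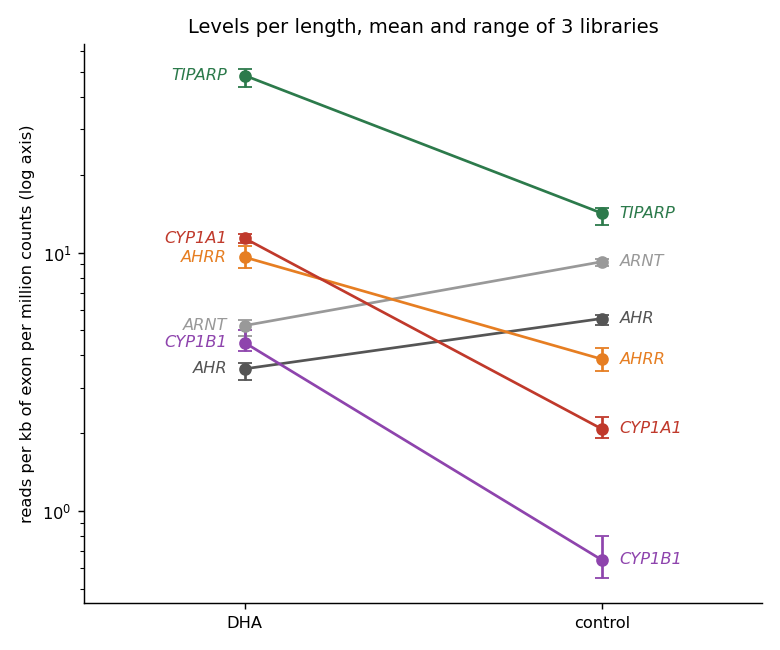
Level of each member per length (RPKM, log axis) in DHA and control libraries; points are means, bars the range of 3 libraries, and lines join the same gene. AHR is lowest in DHA at 3.55 RPKM and has 5.56 RPKM in control; the CYP1A1 line crosses those of both receptor subunits and the CYP1B1 line crosses that of AHR.

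Genes around the pathway were counted in 9 lists with 92 genes in all, of which 67 passed the filter on low counts. In the edgeR fit 29.6% of all genes tested rose and 30.1% fell, so 59.6% passed, and the median log2 fold change was 0.011. With library totals as the only scaling, 3852 of 15811 genes rose and 5612 fell. With the GC and length offset, 4372 of 15811 rose and 4190 fell. The counts in each list stand beside these shares, and no list was tested against them. Among the 6 genes of the cytosolic receptor complex, 5 rose and none fell in the edgeR fit, at a median of 0.38. With library totals as the only scaling, 3 rose and 1 fell. The p23 gene PTGES3 rose by 0.46 ± 0.09, the ubiquitin ligase gene STUB1 by 0.51 ± 0.14 and the Hsp90 gene HSP90AB1 by 0.29 ± 0.09. With the GC and length offset 2 of the 6 rose, and STUB1 was at -0.079 ± 0.12. Without control replicate 2, STUB1 was at 0.34 ± 0.12 and still passed. The call for HSP90AB1 was lost in 8 of 15 other settings, among them those without DHA replicate 1 or 3 or control replicate 2 or 3.

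Of 10 coactivators and corepressors, 5 fell and 2 rose, and the median was -0.26. MED1, a subunit of the Mediator complex, had 102 ± 7.02 CPM in DHA and 219 ± 13.3 CPM in control (SD, n = 3 each), a log2 fold change of -1.003 ± 0.08. The steroid receptor coactivators NCOA2 and NCOA3 had -0.92 ± 0.07 and -0.46 ± 0.08, and the ligand-dependent corepressor NRIP1 had -0.45 ± 0.08. The acetyltransferase EP300 rose by 0.40 ± 0.08 and the corepressor NCOR1 by 0.20 ± 0.07. The NCOR1 call was lost in 10 of 15 other settings, among them those without DHA replicate 1 or 3 or control replicate 1 or 3. With the GC and length offset 2 fell and 3 rose, NCOA3 was at 0.0059 ± 0.074, NRIP1 at 0.11 ± 0.08 and NCOA2 at -0.46 ± 0.06. The same offset put EP300 and NCOR1 higher, at 0.65 ± 0.08 and 0.65 ± 0.06, and both passed.

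Of 8 other genes listed with the classical receptor battery, 3 passed the filter on low counts, with a median of 0.15. The 1 that rose was NFE2L2, at 0.58 ± 0.10 with an adjusted p of 0.000273. It encodes the master regulator of antioxidant genes and not an enzyme of the battery. The tested enzyme genes of this list, NQO1 and ALDH3A1, did not pass. NQO1, a quinone reductase, had 334 ± 51.8 CPM in DHA and 320 ± 7.10 CPM in control (SD, n = 3 each), a log2 fold change of 0.15 ± 0.09 that did not pass, at an adjusted p of 0.165. ALDH3A1, an aldehyde dehydrogenase, had 21, 21 and 12 counts in DHA and 20, 15 and 30 in control libraries, and its log2 fold change was -0.0091 ± 0.34. CYP1A2, the chromosomal neighbour of CYP1A1, did not reach the filter, with 2, 1 and 4 counts in DHA and 1, 2 and 2 in control libraries. GSTA1 and GSTA2 had between 0 and 4 counts per library, and UGT1A1 and UGT1A6 had none. The UGT1A genes share exons, so a count of 0 for them may be a matter of how shared reads were counted, which was not tested.

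Of 12 other genes reported elsewhere as receptor targets, 8 were tested, and 2 rose and 2 fell around a median of 0.0043. STC2, a stress-induced secreted glycoprotein, had 398, 499 and 381 CPM in DHA and 95.1, 166 and 86.6 CPM in control libraries, a log2 fold change of 1.98 ± 0.20. NEDD9, a scaffold of focal adhesions, had 31, 26 and 18 counts in DHA and 1, 8 and 2 in control libraries, and its fitted value of 2.98 ± 0.53 rests on those few counts and was 1.11 ± 0.18 with limma on log2(CPM + 1). The atypical cyclin CCNG2 had a log2 fold change of -0.73 ± 0.14, or -0.30 ± 0.14 with the GC and length offset, where it did not pass. The cell cycle inhibitor CDKN1B had -0.31 ± 0.08.

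Of 13 bHLH-PAS genes beside AHR and ARNT, 10 were tested, of which 5 rose and 5 fell, with a median of -0.13. The circadian factor CLOCK had 76.4 ± 4.29 CPM in DHA and 153 ± 5.29 CPM in control (SD, n = 3 each), a log2 fold change of -0.90 ± 0.07, and ARNTL2 had -0.85 ± 0.09. With the GC and length offset CLOCK was at -0.24 ± 0.06 and ARNTL2 at -0.36 ± 0.10, and both still passed. SIM2, known from neural development, rose by 0.70 ± 0.07. NPAS4, known as an activity-induced gene of neurons, had 109, 139 and 115 counts in DHA and 3, 1 and 1 in control libraries. Its fitted log2 fold change of 6.33 ± 0.30 depends on how so few control counts are treated and was 3.03 ± 0.13 with limma on log2(CPM + 1).

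Among routes to endogenous ligands, 11 genes of tryptophan and kynurenine metabolism were listed and 6 tested, of which 3 rose and 1 fell, with a median of 0.29. Of the enzymes that open the pathway, IDO1 and IDO2 had no count in any library, which allows a level of up to 0.210 CPM. TDO2 had 3, 6 and 4 counts in DHA and 1, 2 and 3 in control libraries. AFMID, the formamidase of the next step, rose by 0.43 ± 0.07, or had 0.12 ± 0.08 with the GC and length offset, where it did not pass. KYAT3, an aminotransferase, rose by 0.62 ± 0.12, while the mitochondrial aminotransferase GOT2 had -0.29 ± 0.07, or -0.45 ± 0.06 with that offset. IL4I1, an amino acid oxidase that yields receptor ligands, had 16, 11 and 14 counts in DHA and 3, 1 and 5 in control libraries, with a fitted value of 2.41 ± 0.50, or 0.70 ± 0.15 with limma on log2(CPM + 1).

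Of 16 PARP genes other than TIPARP, 15 were tested, and 4 rose and 6 fell around a median of -0.22. PARP6 rose by 0.99 ± 0.11, while the antiviral zinc finger gene ZC3HAV1 had -1.02 ± 0.09, PARP1 had -0.71 ± 0.07 and PARP4 had -0.55 ± 0.08. With the GC and length offset ZC3HAV1 was at -0.63 ± 0.08 and PARP4 at -0.24 ± 0.06, and both still passed.

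Of 11 genes of PXR and CAR, the other xenobiotic receptors, and their targets, 4 were tested, with 1 higher and 1 lower and a median of -0.019. Their dimer partner RXRA had a log2 fold change of -0.59 ± 0.09, and the efflux pump ABCB1 rose by 0.46 ± 0.14, a call lost in 6 of 15 other settings, among them those without control replicate 1 or 3, while the GC and length offset put it at 0.77 ± 0.14. The P450 genes CYP3A5, at -0.20 ± 0.26, and CYP2C8, at 0.16 ± 0.45, did not pass. The PXR gene NR1I2 had at most 2 counts in any library, and CYP3A4 had 3, 7 and 4 counts in DHA and 3, 1 and 0 in control libraries. Of 5 microsomal partners of the CYP1 enzymes, 2 rose and none fell, with a median of 0.12. POR, the reductase that passes electrons to cytochrome P450 enzymes, rose by 0.45 ± 0.06. With the GC and length offset none rose: POR was at 0.060 ± 0.060, and the epoxide hydrolase gene EPHX1, which did not pass without the offset at 0.12 ± 0.07, fell by 0.24 ± 0.06. CYB5R3, a cytochrome b5 reductase gene, had 0.080 ± 0.075 and did not pass.

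**Figure D4:**
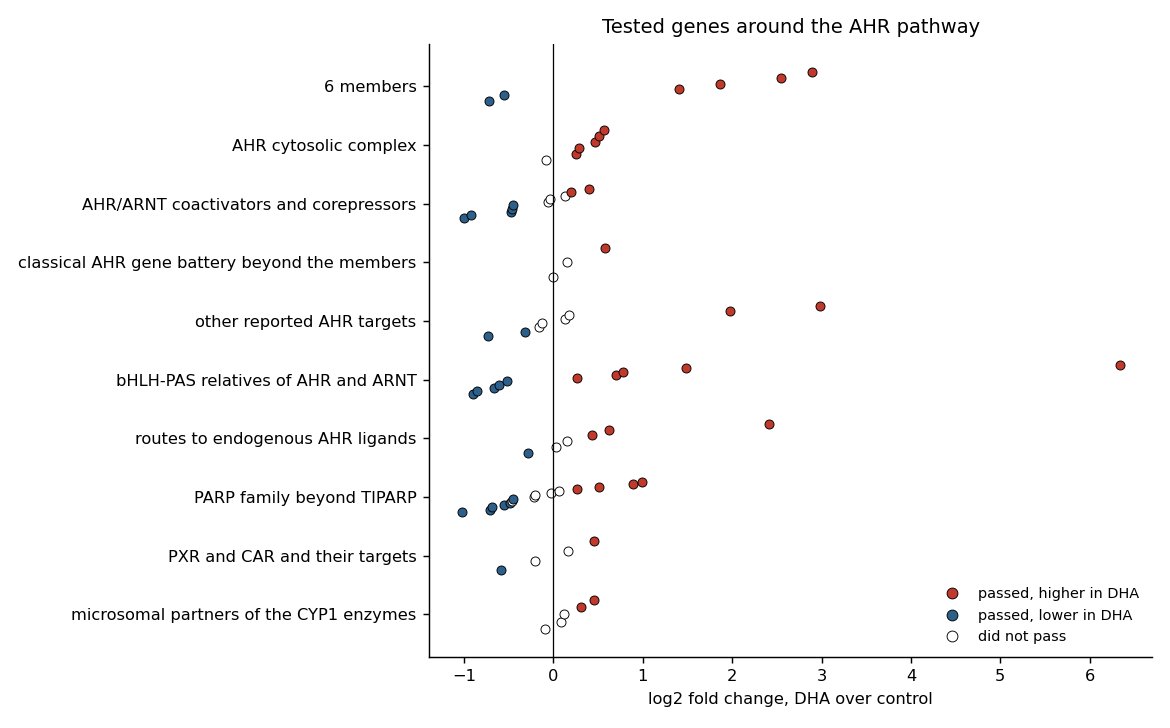
Log2 fold change of DHA over control for the 6 members and the 67 tested genes of 9 lists; red passed as higher, blue passed as lower and white did not pass an adjusted p of 0.05. CYP1A1 and CYP1B1, at 2.55 and 2.89, lie to the right of the tested genes of most lists, and NPAS4 at 6.33 is the farthest point.

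The genes whose pattern was most like each member were found by the distance between log2(CPM + 1) values over the 6 libraries, each gene centred on its mean. The search covered 10953 other genes with a mean of at least 5 CPM and a gene symbol that is not a clone name. Since 3 DHA and 3 control libraries make up the pattern, this mostly finds genes with a similar difference between groups. Nearest to CYP1A1 were the salt-inducible kinase gene SIK1, at a distance of 0.170 and with a log2 fold change of 2.56 ± 0.12, and the small GTPase gene RHOB, at 0.208 and 2.33 ± 0.07. Nearest to CYP1B1 were TRIML2 at a distance of 0.230 and LURAP1L at 0.301. Nearest to TIPARP were the transcription elongation factor gene ELL2 at 0.144 and the chromatin reader gene ING1 at 0.167. Nearest to AHRR were PAN2, a subunit of an mRNA deadenylase, at 0.146 and the autophagy gene MAP1LC3B at 0.157. ARNT was closest to the citrate cycle enzyme gene IDH3A at 0.0377 and the importin gene IPO9 at 0.0389. AHR was closest to SUMO3 at 0.0735 and ZNF207 at 0.0820.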

How the data were processed

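The authors deposited raw read counts per gene for 6 poly(A) RNA libraries. Per the labels' protocols a NEBNext Ultra II kit served for library preparation, and per the submitters' processing notes HISAT2 and DESeq2 1.18.1 were used. The counter, strand setting, annotation and build were not given in the sources used here. The title of DHA replicate 2 spells the agent DNA. The deposited coordinates equal those of GENCODE 29 (GRCh38) for 96.9% of the identifiers found there. A table of the authors' own comparison, also deposited, holds log2 fold changes and p-values of DHA against control.

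Lines with no gene (32) were left out, and 1 row per name was kept. The deposited normalized table was not used. The fit ran in edgeR 4.0.16 under R 4.3.3 (filterByExpr, TMM, glmQLFit, glmQLFTest). DESeq2 1.42.0 and limma 3.58.1 on log2(CPM + 1) were alternatives, as were other scalings, filters and each library left out. SEs of the edgeR fits come from the F statistic, and those of limma from its moderated variance. A 3 against 3 permutation cannot give a p under 0.1, so single values were only described. Members and lists were chosen with earlier results of these data known. From each list the text names up to 4 genes with the smallest adjusted p and the less frequent direction where 3 or fewer passed, except that some listed genes are counted but not reported here by name. For each member it names the 2 genes nearest in pattern. Genes named beside these for low counts were chosen after their values were seen.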

Additional observations from a re-analysis of the deposited data

How the results depend on the processing

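All 6 members kept their direction and their side of the threshold with DESeq2, limma, other scalings, other filters, the replicate block and each library left out. With libraries left out in turn, log2 fold changes ran from -0.60 to -0.44 for AHR, -0.76 to -0.62 for ARNT, 1.33 to 1.48 for AHRR, 2.48 to 2.62 for CYP1A1, 2.78 to 3.05 for CYP1B1 and 1.79 to 1.97 for TIPARP. The 1 alternative chosen after seeing the data, the GC and length offset, put AHR at 0.0058, so that 1 member was lower in place of 2. The same offset turned STUB1 to -0.079, NCOA3 to 0.0059, NRIP1 to 0.11 and EPHX1 to -0.24, and the cause was not tested. Among 15 other settings, the median changed sign in 7 for other reported targets (lowest -0.090), in 4 for PXR and CAR genes (highest 0.13), and with the offset alone for bHLH-PAS genes (0.13) and for microsomal partners. Over all genes the offset gave 8562 calls in place of 9431, of which 6655 were shared. Libraries with the same replicate number did not deviate together, with correlations of 0.056, -0.16 and -0.13 over 11144 genes, and no replicate number of DHA correlated best with its own control number. With the replicate block, 8906 genes and all 6 members passed, with AHR at -0.55 and an adjusted p of 0.00185. Depth limits the genes of a few counts per library, such as CYP1A2 and TDO2, which did not reach the filter and were not tested.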
